A study of Mus musculus with 2 samples.

Results

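The PDGF ligand and receptor genes of the mouse, Pdgfa, Pdgfb, Pdgfc, Pdgfd, Pdgfra and Pdgfrb, were examined in single-cell RNA sequencing (scRNA-Seq) data of GL261 cells, a mouse glioma line of C57BL/6 origin that the labels call an astrocytoma. The 6 genes were taken by symbol from the 32285 genes in the count tables, by a rule that uses no measured value. Adherent cells were grown in DMEM with 10% FBS, and neurospheres, which are free-floating cell aggregates, were grown for 12 days in the same serum-containing medium with B-27 and with EGF and FGF, each at 20 ng/mL. No PDGF was listed among the additions to either culture. Per the labels, both cultures were treated with trypsin and the neurospheres were also broken up by pipetting. The paper's methods name trypsin for the adherent cells only. Each culture was then frozen and sequenced as 1 library, so no difference between cultures below has a replicate check and no test was made.

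The PDGF family consists of secreted ligands that act as dimers and of cell-surface tyrosine kinase receptors that pair when a ligand dimer binds. Pdgfa encodes a chain that binds the alpha receptor, the product of Pdgfra, while the chain encoded by Pdgfb binds both receptors. The chains from Pdgfc and Pdgfd are secreted in a latent form that must be cut by a protease, after which they bind mainly the alpha and the beta receptor, respectively. In the brain, Pdgfra is known as a marker of oligodendrocyte precursors and Pdgfrb as a marker of pericytes, and PDGF signalling is a familiar feature of glioma.

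The libraries held 68531063 unique molecular identifiers (UMIs, each standing for 1 captured transcript) over 5764 cells for the adherent culture, and 82832873 over 4951 for the neurospheres. After removal of mitochondrial and ribosomal genes and of low-quality cells, 5051 adherent and 4276 neurosphere cells remained, with medians of 8260 and 13198.5 UMIs per cell. Levels are given as CPM, a gene's UMIs summed over all kept cells of its library and scaled to a total of 1000000. Their 95% intervals (exact Poisson for CPM, exact conditional for fold changes, exact binomial for shares of cells) cover counting error only. As the neurosphere library was deeper, shares of cells with a UMI were also taken after each cell was thinned at random to 5000 UMIs, for which 587 adherent and 80 neurosphere cells had too few. The libraries had 12 cell barcodes in common.

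Pdgfa was the main ligand transcript in both cultures, and it was lower in neurosphere cells. The kept adherent cells held 7387 Pdgfa UMIs, a level of 159.6 CPM (156.0 to 163.3). The kept neurosphere cells held 2381 Pdgfa UMIs, a level of 36.7 CPM (35.2 to 38.2). The level was thus 4.35-fold lower in neurosphere cells (4.16 to 4.56), a log2 fold change of -2.12 (-2.19 to -2.06), and the intervals of the levels did not overlap. Of the 6 genes, Pdgfa and Pdgfra had at least 50 UMIs over both libraries, and 1 of these 2 genes, Pdgfa, was over 2-fold lower in neurosphere cells. Among all 14654 genes with as many UMIs, 33.4% differed by more than 2-fold (11.7% lower and 21.7% higher), and the median log2 fold change was 0.32. The log2 fold change of Pdgfa was between -2.34 and -1.90 under the other cell filters, scalings and thinning. It was -0.93 when a count of 1 was added to the mean of normalized counts per cell, a formula that shrinks the fold changes of genes at low levels.

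Pdgfa (ENSMUSG00000025856) lies on the minus strand of chromosome 5 from 138976014 to 138997370 in GRCm38, with 7 annotated transcripts over 21.4 kb. RefSeq lists 2 start windows for it in GRCm38.p6, each from 250 bases before to 50 bases after the transcript start, and they are shown because Pdgfa holds nearly all ligand UMIs. Capitals mark matches to 6 motifs searched on both strands: the GC box (GGGCGG), the TATA box (TATAAA), the CCAAT box (CCAAT), an AP-1 site (TGANTCA), an E2F site (TTTCGCGC) and a SOX core (ACAATG). The first window (chr5:138994232-138994531, minus strand) held a SOX core match at -133 and a GC box match at -60 from the start. The second (chr5:138994895-138995194, minus strand) held 2 GC box matches on its opposite strand, at -93 and -86.
Pdgfa window 1: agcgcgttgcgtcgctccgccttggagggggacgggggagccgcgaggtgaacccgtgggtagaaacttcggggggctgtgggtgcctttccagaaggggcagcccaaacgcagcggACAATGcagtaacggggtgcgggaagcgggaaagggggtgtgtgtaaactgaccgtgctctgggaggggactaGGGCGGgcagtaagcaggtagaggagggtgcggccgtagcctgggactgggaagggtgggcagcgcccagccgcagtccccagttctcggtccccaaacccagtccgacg
Pdgfa window 2: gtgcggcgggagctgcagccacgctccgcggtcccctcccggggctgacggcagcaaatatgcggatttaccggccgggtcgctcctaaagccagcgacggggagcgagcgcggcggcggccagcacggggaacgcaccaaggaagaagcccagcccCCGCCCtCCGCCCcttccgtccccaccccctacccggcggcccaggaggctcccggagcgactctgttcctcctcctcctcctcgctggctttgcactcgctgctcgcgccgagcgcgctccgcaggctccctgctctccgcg

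These windows held 24 and 37 CpG dinucleotides, against a median of 7 (quartiles 3 and 20) over 32817 RefSeq start windows of the same length. A GC box match was present in 35.6% of those windows, a SOX core match in 12.6%, a TATA box match in 13.6%, a CCAAT box match in 37.4%, an AP-1 match in 7.81% and an E2F match in 0.323%. A match is a run of letters and not a measured binding site.

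**Figure D1:**
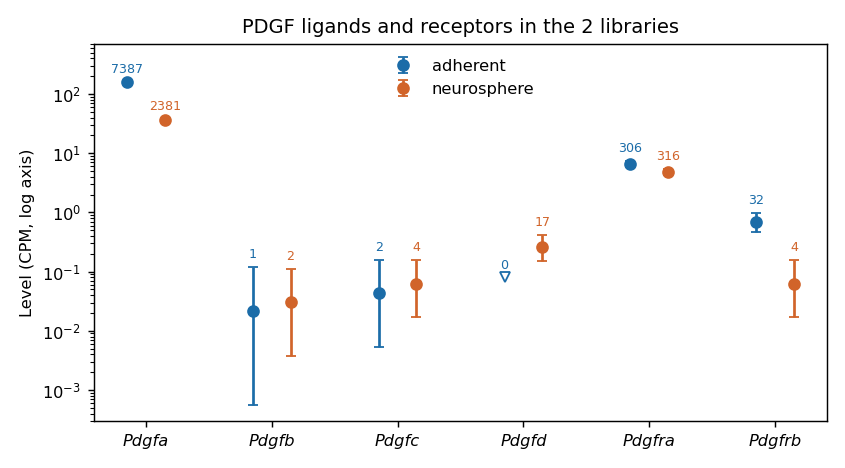
Level of each PDGF gene in CPM (log axis) in the adherent and the neurosphere library, 1 point per library, with exact Poisson 95% intervals and the UMI count above each point. The open triangle is the upper limit for Pdgfd, which had 0 adherent UMIs. The adherent and neurosphere points of Pdgfa are at 159.6 and 36.7 CPM.

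The other 3 ligand genes were at or near the limit of detection. Pdgfb (ENSMUSG00000000489, chromosome 15 from 79995874 to 80014977, minus strand) had 1 adherent and 2 neurosphere UMIs. Both counts were at or under the floor of 3 counts used here, so no fold change is given. Pdgfc (ENSMUSG00000028019, chromosome 3 from 81036416 to 81214040, plus strand) had 2 adherent and 4 neurosphere UMIs, a neurosphere to adherent ratio of 1.43 with an interval from 0.204 to 15.8. A difference in Pdgfb or Pdgfc was not detectable at this depth.

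Pdgfd was counted in neurosphere cells, with 0 adherent UMIs. This gene (ENSMUSG00000032006, chromosome 9 from 6168584 to 6378850, plus strand) has a span of 210.3 kb. The kept neurosphere cells held 17 Pdgfd UMIs in 16 cells, a level of 0.262 CPM (0.152 to 0.419). A count of 0 in the 5051 adherent cells allows a share of up to 0.0594% of cells with a UMI by the floor of 3 counts (0.0730% by the exact binomial limit), against 0.374% (0.214 to 0.607) of neurosphere cells. With the floor of 3 counts for the adherent library, the neurosphere level was at least 4.04-fold higher, and the counting interval of that bound starts at 2.94-fold. After thinning to 5000 UMIs, 5 neurosphere cells still held a Pdgfd UMI, and the bound went from 2.01 to 0.83 on the log2 scale.

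Within the ligand family, Pdgfa accounted for 99.96% of the 7390 adherent ligand UMIs. It accounted for 99.04% (98.57 to 99.39) of the 2404 neurosphere ligand UMIs, and Pdgfd for 0.707% (0.412 to 1.13). With each gene's UMIs divided by its exonic length, the shares of Pdgfa were 99.97% and 99.14%.

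Among the receptors, Pdgfra was found at a low level in both cultures. The adherent cells held 306 Pdgfra UMIs, a level of 6.61 CPM (5.89 to 7.39), and the neurosphere cells held 316 UMIs, a level of 4.87 CPM (4.34 to 5.43). The neurosphere level was 1.36-fold lower (1.16 to 1.59), a log2 fold change of -0.44 (-0.67 to -0.21). The sign was the same under all 11 alternatives tried, and the value was -0.22 when mitochondrial and ribosomal UMIs counted in the total and -0.66 with TMM scaling. These scalings moved the median of all genes by a log2 value of 0.22 and of -0.22, respectively.

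Pdgfra (ENSMUSG00000029231) is on chromosome 5, plus strand, between 75152292 and 75198215, and has 9 annotated transcripts. Its RefSeq start window (chr5:75152001-75152300, plus strand, GRCm38.p6) held none of the 6 motifs and 5 CpG dinucleotides, fewer than either Pdgfa window. It is shown for comparison with the windows of its ligand.
Pdgfra window: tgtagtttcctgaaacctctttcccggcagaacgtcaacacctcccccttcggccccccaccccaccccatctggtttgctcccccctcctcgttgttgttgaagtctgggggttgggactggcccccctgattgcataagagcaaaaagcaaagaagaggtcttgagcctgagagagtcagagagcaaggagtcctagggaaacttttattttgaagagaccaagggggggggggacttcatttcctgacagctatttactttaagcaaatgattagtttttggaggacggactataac

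Pdgfrb was rarely counted and was lower in neurosphere cells. The adherent cells held 32 Pdgfrb UMIs in 32 cells, a level of 0.691 CPM (0.473 to 0.976). The neurosphere cells held 4 UMIs in 4 cells, a level of 0.0616 CPM (0.0168 to 0.158). The level was 11.2-fold lower in neurosphere cells, with an interval from 3.98 to 43.7 that reflects the small counts. The adherent UMIs were spread over all 10 adherent cell clusters, with 1 to 6 UMIs in each. Pdgfrb (ENSMUSG00000024620) is on chromosome 18, plus strand, between 61045150 and 61085061.

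The share of cells with a UMI showed the same order for Pdgfa as the summed level. A Pdgfa UMI was present in 3374 adherent cells, 66.8% (65.5 to 68.1), and in 1325 neurosphere cells, 31.0% (29.6 to 32.4). After thinning to 5000 UMIs the shares were 51.9% (50.4 to 53.4) and 14.0% (12.9 to 15.1). Both libraries are of a single cell line, so there was no cell type known to lack the gene from which to read the share that free RNA would give.

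**Figure D2:**
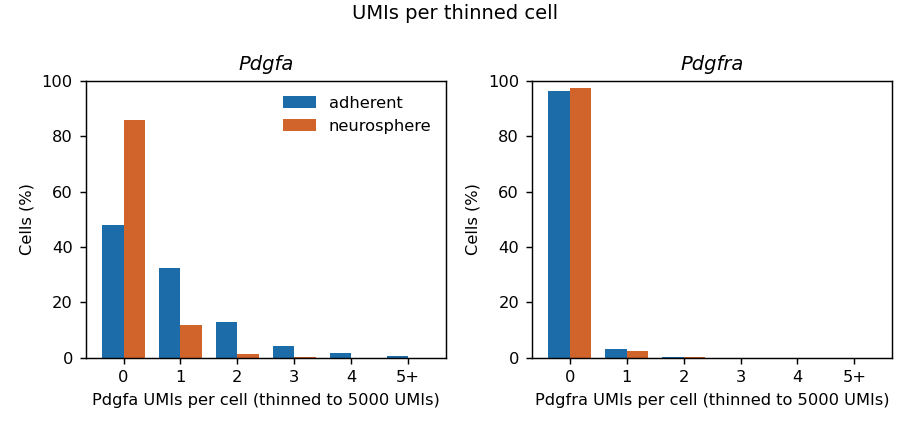
Share of cells (%) by the number of Pdgfa UMIs (left) or Pdgfra UMIs (right) per cell, with every cell thinned to 5000 UMIs, for 4464 adherent and 4196 neurosphere cells. Of adherent and neurosphere cells, 48.1% and 86.0% had no Pdgfa UMI left, and 96.6% and 97.5% had no Pdgfra UMI.

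The number of Pdgfa UMIs per cell varied in both cultures. Up to 19 Pdgfa UMIs were counted in a single cell of either culture. At least 5 were found in 285 adherent cells (5.64%) and 75 neurosphere cells (1.75%), and at least 10 in 9 adherent and 12 neurosphere cells. The ratio of variance to mean of thinned counts was 1.23 in adherent and 1.33 in neurosphere cells.

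For Pdgfra the order of the shares depended on depth. A Pdgfra UMI was present in 286 adherent cells, 5.66% (5.04 to 6.34), and in 272 neurosphere cells, 6.36% (5.65 to 7.13). After thinning to 5000 UMIs the shares were 3.45% (2.93 to 4.03) and 2.53% (2.07 to 3.05), in the order of the CPM. No cell held more than 3 Pdgfra UMIs in adherent or more than 5 in neurosphere cells, and the mean in cells with any was 1.07 and 1.16.

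Before thinning, transcripts of the ligand and its receptor were counted together more often than the product of their shares gives. After thinning, the count was below the product in adherent cells and still above it, on few cells, in neurosphere cells. Pdgfa and Pdgfra UMIs were found together in 205 adherent cells (4.06%), where the product of the shares gives 191.0 cells. They were found together in 106 neurosphere cells (2.48%), where the product gives 84.3 cells. As shares depend on depth, the pair was also counted in cells thinned to 5000 UMIs. The counts were then 74 adherent cells against a product of 79.9 and 18 neurosphere cells against 14.8. The cause of the differences from the product was not tested. Among thinned cells, Pdgfa was present in 48.1% (39.9 to 56.2) of adherent cells with a Pdgfra UMI and in 52.0% of those without. The corresponding neurosphere shares were 16.98% (10.4 to 25.5) and 13.9%. The other pairs were too rare to describe beyond their counts. Pdgfa and Pdgfrb were found together in 20 adherent and 3 neurosphere cells, Pdgfra and Pdgfrb in 2 and 1 cells, and Pdgfd and Pdgfra in 3 neurosphere cells.

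Clustering of each library alone in Seurat gave 10 adherent and 10 neurosphere clusters, which are numbered separately in each library. Pdgfa was among the 2000 variable genes used for clustering in both libraries (rank 1672 in adherent and 455 in neurosphere cells), so its levels by cluster are a description. Pdgfra and the other members were not among them. In adherent cells, Pdgfa ranged from 142.1 CPM in cluster 6 to 182.8 CPM in cluster 1, a ratio of 1.29. In neurosphere cells, it ranged from 17.9 CPM in cluster 2 to 73.6 CPM in cluster 5, a ratio of 4.11. The highest neurosphere cluster was below the lowest adherent cluster.

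Neurosphere cluster 5, led by Wnt7b, Prss56, Igf1, Btbd16 and Fosl1, held 732 Pdgfa UMIs, which is 30.7% of the library's Pdgfa UMIs in 10.2% of its cells. Its level was 73.6 CPM (68.3 to 79.1). This was also the deepest cluster, with a median of 21048 UMIs per cell, and after thinning 25.4% of its cells held a Pdgfa UMI against 7.90% in cluster 2. Next came cluster 9, with 75 cells led by Cxcl2, Nppb and Ccl2, at 59.9 CPM (44.9 to 78.3). Cluster 4, led by Chit1, Cyp4f18 and Spp1, was at 51.7 CPM (46.0 to 57.9). The remaining 7 neurosphere clusters were between 17.9 and 34.9 CPM.

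**Figure D3:**
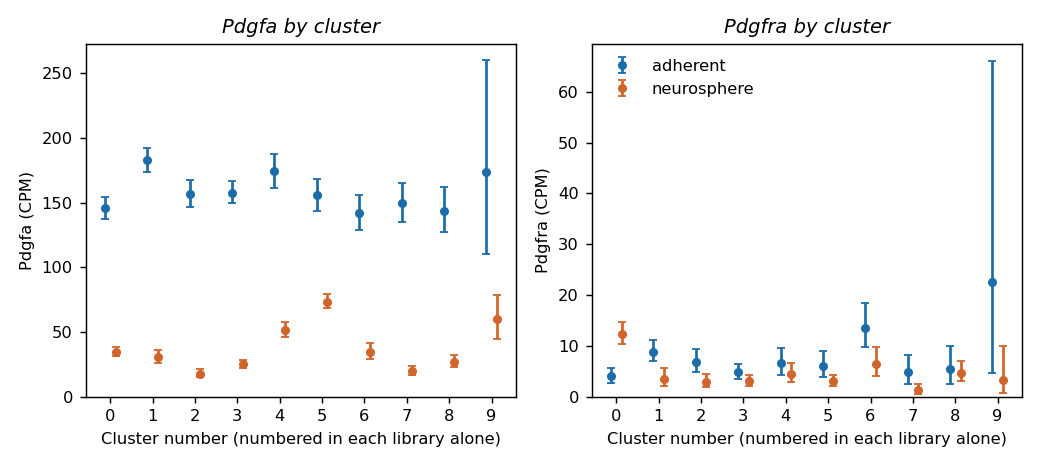
Pdgfa (left) and Pdgfra (right) in CPM in each of the 10 clusters of the adherent and of the neurosphere library, with exact Poisson 95% intervals. Cluster numbers are not matched between libraries. For Pdgfa the adherent clusters lie between 142.1 and 182.8 CPM and the neurosphere clusters between 17.9 and 73.6 CPM.

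Among the neurosphere clusters, Pdgfra was highest in one that also had high levels of mitotic genes. Neurosphere cluster 0, with 607 cells led by Aatk, Depdc1b, Chn2 and Aspm, held 129 Pdgfra UMIs, 40.8% of the library's Pdgfra UMIs in 14.2% of its cells. Its level was 12.4 CPM (10.4 to 14.7), and 7.27% of its thinned cells held a Pdgfra UMI. Neurosphere cluster 3, which is G2/M-like by its leading genes Cdc20, Plk1, Ube2c, Ccnb1 and Aurka, was at 3.09 CPM (2.10 to 4.38), with a Pdgfra UMI in 0.624% of thinned cells. The summed level of the 10 G2/M genes was alike in these clusters, at 3776 CPM in cluster 0 and 3791 CPM in cluster 3. The lowest level, 1.33 CPM (0.608 to 2.53), was in cluster 7, led by Hist1h2ap, Hist1h1b and Neil3.

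Cluster 6 of the neurosphere library, whose leading genes included Enpp2, Mbp, Gpr17 and Lhfpl3, had the highest summed level of the oligodendrocyte precursor genes, 5771 CPM. Its Pdgfra level was 6.53 CPM (4.19 to 9.72), below that of cluster 0, where the same genes summed to 4149 CPM. Cluster 1, next in these genes with 4887 CPM, had Pdgfra at 3.59 CPM (2.13 to 5.68). The order of the neurosphere clusters in Pdgfra was therefore not their order in the other precursor genes.

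In adherent cells, Pdgfra was at 13.6 CPM (9.79 to 18.4) in cluster 6, led by 4933429H19Rik, 4930429F24Rik, 1700023H06Rik and Tex14. The G2/M-like cluster 1, led by Aspm, Pif1, Cenpf and Ccnf, was at 8.90 CPM (7.04 to 11.1). Cluster 3, whose leading genes included Areg, Ube2c and Aurka, was at 4.80 CPM (3.45 to 6.51). Aspm and Pif1 were thus among the leading genes of adherent cluster 1 and of neurosphere cluster 0, while Ube2c and Aurka were among those of the clusters numbered 3 in both libraries. The value of adherent cluster 9, 22.6 CPM, rested on 3 UMIs in 48 cells and had an interval from 4.67 to 66.1.

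**Figure D4:**
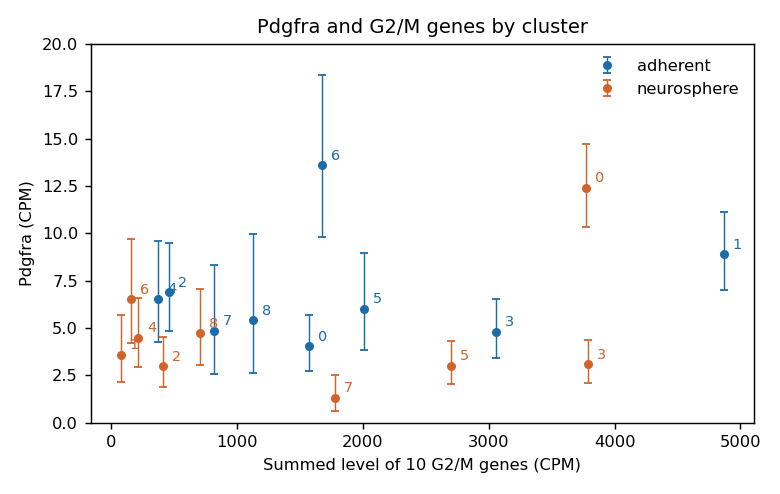
Pdgfra (CPM, exact Poisson 95% interval) against the summed level of 10 G2/M genes (CPM) in each cluster, labelled by its number, without cluster 9 of either library, which had 3 Pdgfra UMIs each. Neurosphere clusters 0 and 3 have nearly the same G2/M level but are at 12.4 and 3.09 CPM of Pdgfra.

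The genes whose levels followed Pdgfa most closely over clusters were sought among genes with at least 1000 UMIs in the library, as the Pearson correlation of log2(CPM + 1) over the 10 clusters. These clusters share 1 library and differ in depth, so the correlations are descriptions. Over the neurosphere clusters, the closest of 7596 genes were Hbegf (r = 0.93), which encodes an EGF receptor ligand, Pmepa1 (0.92), Il1rap (0.90), Pcyt1b (0.90) and Tshz1 (0.88). Hbegf was also lower in neurosphere than adherent cells, with a log2 fold change of -3.31. Over the adherent clusters, where Pdgfa varied little, the closest of 5693 genes were Slu7 (0.84), Prnp (0.83), Emp1 (0.79), Klf13 (0.79) and Syt4 (0.78). No gene was named for both libraries.

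Of the genes that process, bind or sequester PDGF, more were lower than higher in neurosphere cells. With at least 50 UMIs over both libraries, 9 of 12 genes were measured, with 1 past 2-fold on the high side and 5 on the low side (21.7% and 11.7% of all genes), with a median log2 fold change of -1.14. Sparc, which encodes a matrix protein that binds PDGF, was at 1247 CPM in adherent cells against 170.2 CPM (log2 fold change -2.87). Thbs1, encoding thrombospondin, had a log2 fold change of -3.28, and Pdgfrl, which encodes a receptor-like protein, had 86 adherent and 17 neurosphere UMIs (-2.83, and between -4.43 and -2.61 under the alternatives). The endocytic receptor gene Lrp1 was at -1.46, and the co-receptor gene Nrp1 at -1.14. Pcsk7, a proprotein convertase gene, was higher at 1.37. Furin, which encodes a convertase that cuts PDGF precursors, was at 11.7 and 10.3 CPM, and Plat, encoding the protease that activates PDGF-CC, at 18.02 and 20.7 CPM. Plau had 5 adherent and 8 neurosphere UMIs.

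All 36 genes of the signal relay below the receptors were measured. Of these, 9 were over 2-fold higher and 0 over 2-fold lower in neurosphere cells, with a median log2 fold change of 0.53 against 0.32 over all genes. Among all genes, 21.7% were over 2-fold higher, so a count of 9 in 36 is near the background on that side. On the low side, 11.7% of all genes passed 2-fold, a larger share than the 0 in 36 found here. Pik3r1, a regulatory subunit of PI3-kinase that binds the activated receptors, went from 20.3 to 75.9 CPM (log2 fold change 1.90). The adaptor gene Gab1 was at 1.78 and the transcription factor gene Stat5b at 1.14. Ptpn11 and Plcg1, whose products also bind the receptors, were at 0.13 and 0.20. This split depended on the scaling: with TMM, 3 genes were over 2-fold higher and 2 lower by as much, against 16.1% and 14.5% of all genes. The latter included Mapk3 (-1.11), named here after its value was seen. When mitochondrial and ribosomal UMIs counted in the total, 11 were higher and 0 lower, against 29.5% and 9.38% of all genes.

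Among the 10 genes of receptor down-regulation, all measured, 1 was over 2-fold higher and 0 over 2-fold lower (21.7% and 11.7% of all genes), with a median of 0.15 that was -0.07 with TMM scaling. With TMM scaling, 0 were over 2-fold higher, against 16.1% of all genes. Cbl, a ubiquitin ligase that marks activated receptors for degradation, was at 0.19.

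Of 15 related growth factor and receptor genes, 11 were measured, with 1 over 2-fold higher and 3 over 2-fold lower (21.7% and 11.7% of all genes). The median was -0.21, against 0.32 over all genes. The exception on the high side was Kit, a receptor gene of the same subfamily and the next protein-coding gene after Pdgfra on chromosome 5. Kit had 8 adherent and 775 neurosphere UMIs, a log2 fold change of 6.11 (5.12 to 7.33), while its ligand gene Kitl was at -1.999. Flt4, a receptor gene for the lymphatic VEGFs, was at -2.55 and Flt3l, a cytokine gene, at -1.37. Vegfa was at -0.04 and Csf1 at -0.82.

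Of the 8 protein-coding neighbours of Pdgfra with at least 50 UMIs, 7 were higher in neurosphere cells, beside 64.2% of all genes with as many UMIs, and of the 7 such neighbours of Pdgfa, 4 were higher and 3 lower. Of the 5 nearest protein-coding genes on the side before the start of Pdgfra, Scfd2 was at a log2 fold change of 2.74, Fip1l1 at 0.70, Lnx1 at 1.81 and Chic2 at -0.17, and Gsx2 had 37 adherent and 4 neurosphere UMIs. On the other side, Kit was at 6.11, Srd5a3 at 1.60, Tmem165 at 1.06 and Clock at 1.11, and Kdr had 0 adherent and 2 neurosphere UMIs.

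Immediate early genes and other genes known to be induced by PDGF differed in both directions. Of 16 genes, 14 were measured, with 4 over 2-fold higher and 4 over 2-fold lower, beside 21.7% and 11.7% of all genes. The median was 0.71. The chemokine gene Ccl2 was at 0.972 and 24.3 CPM (log2 fold change 4.64, and between 3.69 and 4.89 under the alternatives). Its UMIs came from few cells, 0.277% of adherent and 1.64% of neurosphere cells. The transcription factor genes Egr1, Egr2 and Fosb were at 1.89, 1.28 and 1.06. On the low side, Ier3 went from 260.4 to 45.6 CPM (-2.51), and Fosl1 and Atf3 were at -1.87 and -1.16.

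**Figure D5:**
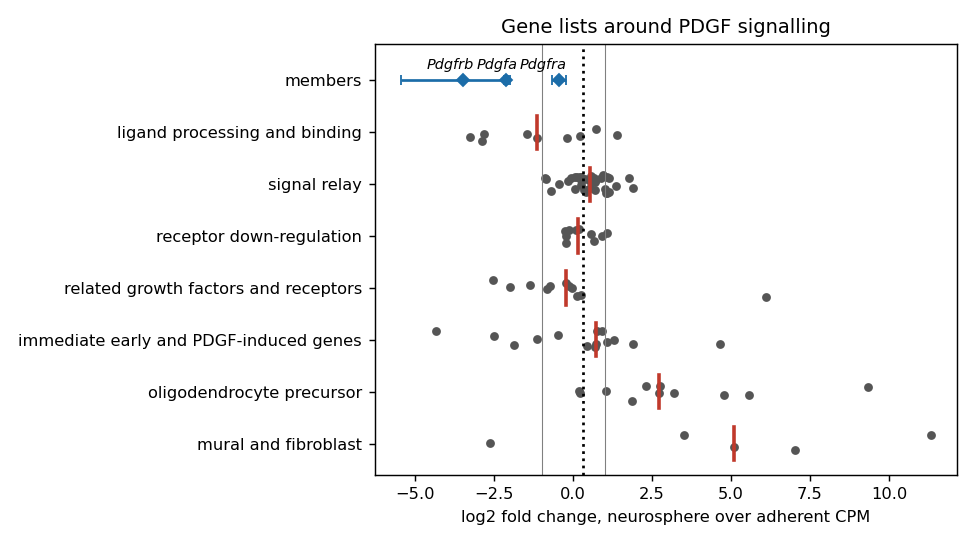
Log2 fold change (neurosphere over adherent CPM) of each measured gene in 7 gene lists, with Pdgfa, Pdgfra and Pdgfrb and their 95% intervals in the top row. Grey lines mark 2-fold, the dotted line the median of all 14654 genes (0.32) and red bars the list medians, which run from -1.14 for ligand processing and binding to a floor-based 5.09 for mural and fibroblast genes.

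Other genes of the oligodendrocyte precursor, a cell type in which Pdgfra is a defining marker, were higher in neurosphere cells. Of 12 such genes without Pdgfra, 11 were measured, 9 were over 2-fold higher and 0 lower by as much (21.7% and 11.7% of all genes), and the median was 2.73. Their summed level was 633.2 CPM in the adherent and 3506 CPM in the neurosphere library. The transcription factor genes Olig1 and Olig2 went from 141.1 to 1292 CPM (log2 fold change 3.20) and from 69.8 to 465.1 CPM (2.74). The log2 fold change was 5.58 for Pcdh15, a protocadherin gene, and 4.79 for Bcan, a matrix proteoglycan gene. Gpr17 had 1 adherent and 904 neurosphere UMIs. Cspg4, which encodes NG2, was at 1.04 (0.82 with TMM scaling), and Sox10 was at 0.22. Pdgfra, at -0.44, was below all 11 measured genes of this list.

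Genes of mural cells and fibroblasts, the cell types known for Pdgfrb, were mostly scarce. Of 13 genes without Pdgfrb, 5 were measured, with 4 over 2-fold higher and 1 lower by as much (21.7% and 11.7% of all genes). The median was 5.09 with the floor of 3 counts, as it rests on a gene with 0 adherent UMIs. The matrix genes Col1a1 (log2 fold change 7.04) and Dcn (1 adherent and 3606 neurosphere UMIs) and the adhesion gene Mcam (3.50) were higher. Lum had 0 adherent and 143 neurosphere UMIs, at least 5.09 on the log2 scale with the floor of 3 counts, a bound that was between 3.75 and 5.31 under the alternatives. Des, which encodes the filament protein desmin, was at -2.63. The pericyte gene Rgs5 had 1 adherent and 9 neurosphere UMIs, and Kcnj8 had 2 and 0. The summed level of the 13 genes was 30.3 CPM in the adherent and 636.0 CPM in the neurosphere library, where Col1a1 (329.0 CPM), Mcam (247.5 CPM) and Dcn (55.5 CPM) made up nearly all of it. Notch3 (33 adherent and 13 neurosphere UMIs), Acta2 (15 and 3) and Anpep (10 and 2), named after their values were seen, had fewer neurosphere UMIs, while Tagln (4 and 16) and Col1a2 (1 and 23) had more. With a minimum of 10 UMIs, 7 genes of the list were over 2-fold higher and 4 lower by as much, against 23.6% and 14.7% of all genes. Genes of other cell types were low in sum. The 5 endothelial genes summed to 1.51 and 3.91 CPM, with Cdh5 at 0 in both libraries. The 6 immune genes summed to 2.40 and 1.79 CPM, with Tyrobp at 0 in both. Most of these sums came from 1 gene each, named after its values were seen. Pecam1 had 61 adherent and 208 neurosphere UMIs (log2 fold change 1.28), and Cx3cr1 had 103 and 96 (-0.59).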

How the data were processed

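GL261 adherent and neurosphere cells were each measured as 1 library with a 10x Genomics 3' kit. The authors deposited raw UMI counts per gene and called cell, unnormalized. Per the labels' processing notes, Cell Ranger 7.0.1 and mm10 were used. Whether reads in introns or on the antisense strand were counted is not given in the sources used here. The antisense gene 6330403L08Rik, which overlaps Pdgfa, had 58 adherent and 80 neurosphere UMIs.

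The 13 mitochondrial and 101 ribosomal genes were removed, then cells under 1000 UMIs or under 1250 (adherent) or 2250 (neurosphere) genes, which kept 87.6% and 86.4% of cells and 46290996 and 64943938 UMIs. Doublets were not removed; leaving out cells over the 95th percentile of UMIs was an alternative. UMIs were summed per library or cluster and given as CPM, and a count of 0 was set at a floor of 3 counts for floor-based fold changes. Intervals are at 95% and cover counting error only. Clusters came from Seurat 5.3.0 under R 4.3.3 (2000 variable genes, 17 adherent and 18 neurosphere PCs, resolution 1.0). TMM scaling used edgeR 4.0.16. Other values were computed in Python 3.11.15 with numpy 2.4.6, scipy 1.17.1 and pandas 2.3.3. Gene positions are from the GENCODE annotation of GRCm38, where 32235 of 32285 identifiers matched, and start windows are from RefSeq, where 4 of the 6 genes matched. The fold change script was tested on simulated counts of neurosphere against adherent cells, with 14654 genes of which 200 were changed, where the intervals held the true value for 95% and the sign was right for 100% of them.

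The 6 genes and all gene lists were chosen with earlier results of these data known. In each list, genes are named if among the 4 largest or 4 smallest log2 fold changes past 2-fold with at least 50 UMIs, with a few regulators named whatever their values. The values of some genes that meet this rule are not reported here. Genes are also named as the 5 protein-coding neighbours of Pdgfra on each side, and as the 5 genes most correlated with a member that has at least 1000 UMIs. Alternatives covered the cell filters, gene removal, scaling, thinning, the fold change formula, gene length, the UMI minimum and the clustering settings.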

Additional observations from a re-analysis of the deposited data

Results flagged for a closer look

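UMIs of Pdgfa and Pdgfra were also present in the called barcodes that the cell filter left out, which enter the levels above only in the alternative with all called cells. The 713 adherent barcodes left out had a median of 48.8% mitochondrial UMIs, and the 675 neurosphere barcodes a median of 87.0%. They held 53 Pdgfa UMIs in adherent and 26 in neurosphere barcodes, which on the genes left is 135.2 CPM (101.3 to 176.8) and 45.2 CPM (29.6 to 66.3). The kept cells were at 159.6 and 36.7 CPM, inside both intervals. Pdgfra had 4 UMIs in the adherent barcodes left out and 4 in the neurosphere ones, or 10.2 CPM (2.78 to 26.1) and 6.96 CPM (1.90 to 17.8), and the kept cells were inside these intervals too. Pdgfrb had 3 UMIs in the adherent barcodes left out, or 7.65 CPM (1.58 to 22.4), above the 0.691 CPM of the kept cells.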

How the results depend on the processing

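The fold changes of Pdgfa, Pdgfra and Pdgfrb, and the floor-based value for Pdgfd, kept their direction under the alternatives run. Pdgfb had no fold change, and that of Pdgfc was within counting error. Values near 0 did not: over the scalings, filters and thinning, Furin ran from -0.40 to 0.04, Plat from -0.01 to 0.42, Plau from -0.03 to 0.53, Ptpn11 from -0.09 to 0.34, Plcg1 from -0.01 to 0.42, Cbl from -0.03 to 0.41, Vegfa from -0.25 to 0.18 and Chic2 from -0.38 to 0.05. The median of receptor down-regulation was -0.07 with TMM scaling, and that of the related growth factors 0.0089 with mitochondrial and ribosomal genes kept. The order of the Pdgfra shares turned on thinning. No paired analysis was possible because each culture is 1 library and the labels give no replicate numbers, and no replicate could be left out. The log2 fold change of Pdgfa moved past its counting interval with mitochondrial and ribosomal genes kept (-1.90), TMM scaling (-2.34), thinning (-2.26) and the per-cell mean with 1 added (-0.93). The last formula gave 0.0036 for Pdgfd, -0.024 for Pdgfra and -0.011 for Pdgfrb, and thinning lowered the floor-based value for Pdgfd to 0.83. The other 46 fold changes under alternatives stayed within their intervals. Shares of cells with a UMI followed depth: thinned to 5000 UMIs, thinned to 3000 UMIs and in all called cells, Pdgfa was in 51.9%, 35.9% and 59.2% of adherent and 14.0%, 8.54% and 27.1% of neurosphere cells. Under the same settings Pdgfra was in 3.45%, 1.97% and 5.03% of adherent and 2.53%, 1.64% and 5.57% of neurosphere cells. Co-detection of Pdgfa and Pdgfra in thinned cells was 1.66% in adherent and 0.429% in neurosphere cells. The highest neurosphere cluster level of Pdgfa was 65.9 CPM at resolution 0.8 and 81.6 CPM with 30 PCs, and that of Pdgfra was 8.77 CPM at resolution 0.8. Under TMM scaling, the signal relay had 3 genes over 2-fold higher and 2 lower, and receptor down-regulation 0 higher (16.1% and 14.5% of all genes). With mitochondrial and ribosomal genes kept, receptor down-regulation had 2 higher (29.5% of all genes). With a minimum of 1 UMI, ligand processing and binding had 2 higher. With a minimum of 10 UMIs or of 1 UMI, the related growth factors had 2 higher, and the mural and fibroblast list 7 higher and 4 lower. Of all genes, 23.6% were higher and 14.7% lower at 10 UMIs, and 22.8% and 16.1% at 1 UMI. The other 59 list counts were within 1.5 times the main count. Where the alternative's own construction does not show the cause of a change, the cause was not tested. Counts of 4 or fewer UMIs limit what can be said of Pdgfb, Pdgfc and neurosphere Pdgfrb.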

Other observations

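Thinned neurosphere cells with a Pdgfra UMI were set beside those without one, over genes chosen after their values were seen. In the 106 cells with a Pdgfra UMI, Adgrb3, an adhesion receptor gene, was 4.17-fold higher (3.11 to 5.50) than in the 4090 cells without. Lhfpl3, a gene of the oligodendrocyte precursor list, was 3.06-fold higher (2.68 to 3.50), Fabp7, a fatty acid binding protein gene of neural progenitors, 2.98-fold and Erbb3, a neuregulin receptor gene, 2.97-fold. The 12 oligodendrocyte precursor genes together were 1.21 times as high in these cells, the G2/M genes 1.25 times and the S phase genes 0.87 times. The ligand processing and binding genes were 1.37 times as high, the related growth factors and receptors 1.34 times, the signal relay 1.09 times, receptor down-regulation 1.02 times, the immediate early and PDGF-induced genes 0.88 times and the mural and fibroblast genes 0.76 times. The endothelial and immune genes had 4 and 0 UMIs in the cells with a Pdgfra UMI. Single genes were ranked only if they had at least 500 UMIs in the thinned cells of a library. In adherent cells, the largest ratios of ranked genes beside a Pdgfra UMI (154 cells) were 2.47 for the cytokine gene Il11 and 2.43 for Tmco3. Of the lists, the immediate early and PDGF-induced genes were 1.11 times as high in these adherent cells, the mural and fibroblast genes 1.21 times (28 UMIs), the oligodendrocyte precursor genes 1.09 times, the G2/M genes 1.18 times and the S phase genes 0.97 times. The ligand processing and binding genes were 1.10 times as high, the related growth factors and receptors 1.08 times, the signal relay 1.05 times and receptor down-regulation 1.04 times, and the endothelial and immune genes had 0 and 2 UMIs. Adgrb3 is also among the leading genes of neurosphere cluster 0, where Pdgfra was highest, and a cluster's cells share its leading genes.

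Beside a Pdgfa UMI, 586 thinned neurosphere cells had higher levels than the 3610 others of Mucl2 (2.76-fold, 2.37 to 3.21), the small heat shock protein gene Cryab (2.10-fold, 1.99 to 2.22), the galectin gene Lgals3 (1.94-fold) and the calcium-binding protein gene S100a6 (1.84-fold). These genes too were chosen after their values were seen. Apart from the sparse endothelial and immune genes, list ratios ran from 0.86 (mural and fibroblast) and 0.88 (oligodendrocyte precursor) to 1.11 (G2/M). In adherent cells the largest ratio of a ranked gene beside a Pdgfa UMI was 1.37 (1.23 to 1.52), for the lipid phosphatase gene Plpp1. Around Pdgfa itself, the protein-coding neighbours with at least 50 UMIs ran from a log2 fold change of -2.27 for Adap1 and -1.46 for Prkar1b to 1.65 for A430033K04Rik.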
